A study of Mus musculus with 12 samples.

Results

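The genes described here are 38 mouse genes of homologous recombination and of the DNA damage checkpoint, together with close partners in crosslink, end-joining and single-strand break repair. The rule lists symbols and uses no measured value, but it was written with earlier results of these data known. A gene was taken as measured on an array design where the platform annotation gave a feature with that symbol alone, which held for 36 of the 38 genes (of 18161 genes in all) on the Mouse Genome 430 2.0 arrays and for 34 (of 14794) on the Mouse Exon 1.0 ST arrays. All 34 were also measured on the 430 arrays. Xrcc2 and Trp53 had no such feature on either design, and Atr and Fancd2 none on the exon arrays, so these are not analysed there. Where a gene had several features, the one with the highest mean over the 6 arrays of the design stands for it. H2afx is listed as H2ax in the annotation used.

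RNA came from PUER cells, mouse myeloid progenitors without endogenous PU.1, a transcription factor of myeloid and B-lymphoid cells. In its place they carry PU.1 fused to the ligand-binding domain of the estrogen receptor. On each design, 3 arrays are labelled 24 h, for cells given 100 nM 4-hydroxytamoxifen (OHT, the ligand that activates the fusion), and 3 are labelled 0 h, for uninduced cells. Both groups carry the fusion and grew with 5 ng/ml interleukin-3, so 0 h is the uninduced state of the same line and not a line with normal PU.1. All values are log2 signals as the authors deposited them, and a change is the mean of the arrays labelled 24 h minus the mean of those labelled 0 h.

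Homologous recombination copies the intact sister chromatid to mend a broken one and is therefore used mainly in cells that replicate their DNA. The kinases ATM and ATR sense breaks and stalled forks and act through CHK2 and CHK1, the MRN complex holds and trims the ends, and BRCA1, PALB2 and BRCA2 prepare the resected strand for the exchange with its sister. The Fanconi anemia proteins unhook crosslinks in the same route. Many of these genes are transcribed with the replication program under E2F factors, and p53, held in check by MDM2, is a main output of the checkpoint.

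The 2 designs disagree in direction throughout, so each direction below is that of the labels of its own design. Of 3771 genes called on both designs (limma, Benjamini-Hochberg adjusted p under 0.05 over all features), 3714 moved in opposite labelled directions and 57 in the same one. The changes correlated at r = -0.86 (Pearson) and -0.72 (Spearman) across the 13366 genes on both designs; genes are not independent replicates. Of the macrophage markers (Adgre1, Csf1r, Itgam and others), 9 of 10 were called higher on the 430 arrays labelled 24 h, where their mean log2 level was 9.91 to 9.96, against 6.73 to 6.81 at 0 h. Of these on the exon arrays, 8 of 9 were called lower, with 5.24 to 5.34 in the arrays labelled 24 h and 7.97 to 8.04 in those labelled 0 h. The myeloid progenitor markers went the other way, with 6 of 9 called lower and 1 higher on the 430 arrays, and 7 of 10 higher and 1 lower on the exon arrays; Cd34 was near the low end of the scale throughout. Mean log2 levels of the B-cell, T-cell, erythroid and mast cell lists stayed between 4.84 and 5.70 on the 430 arrays and between 3.80 and 4.86 on the exon arrays. On the 430 arrays 1 of 7 B-cell markers was called lower, 3 of 6 T-cell and 1 of 6 erythroid markers higher, and of 8 mast cell markers 2 lower and 2 higher. On the exon arrays 2 of 7 mast cell markers were called higher. Over all genes, 26.1% were called lower and 26.1% higher on the 430 arrays, and 10.9% lower and 19.3% higher on the exon arrays. The values alone do not settle which design carries the direction of the culture, and if the exon labels were swapped each exon change below would turn its sign and stay as large.

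Upstream sequence is shown first, since E2F sites are a known feature of genes expressed with replication. Any link of such sites to the changes below was not tested. Windows of 300 bases, from 250 before to 50 after each RefSeq gene start (GRCm38.p6), existed for 31 of the 38 genes. An E2F word (TTTCGCGC, TTTGGCGC, TTTCCCGC or TTTGCCGC, either strand) stood in a window of 9 of the 31 genes, or 29.0%. The share was 3.80% of the 14461 genes that have a window and are on the 430 arrays, and 2.60% of all 27025 genes with a window. These are descriptions of letters in a window and were given no test. The 9 genes include Chek2 and Rad51c, which were not called on the 430 arrays by the probe set that stands for each. A dimmer Rad51c probe set was called lower there (-0.62, adjusted p = 0.000317). By the probe sets that stand for the genes, 7 of 24 genes called lower held the word, and 2 of the other 6 measured. There were 10 matches, since Rad51c has 2 windows with 1 each; the first match of each gene is printed with 10 bases on either side, on the strand of the gene, with the E2F word in capitals.
Chek2 (chr5:110839821-110839848, + strand): gggattagccGCGGGAAAccaagacgtc
Clspn (chr4:126556991-126557018, + strand): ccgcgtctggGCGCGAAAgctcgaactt
Topbp1 (chr9:103305188-103305215, + strand): cgctcggttgGCGCGAAAgtcggttccc
Bard1 (chr1:71103164-71103191, - strand): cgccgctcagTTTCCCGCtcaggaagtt
Brca2 (chr5:150522443-150522470, + strand): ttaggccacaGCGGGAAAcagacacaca
Rad51c (chr11:87404478-87404505, - strand): tttccagcgcTTTCGCGCctcttgctct
Msh6 (chr17:87975055-87975082, + strand): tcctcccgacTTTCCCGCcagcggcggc
Fancg (chr4:43010336-43010363, - strand): ttcttttcagTTTCCCGCggaaccgtct
Xrcc6 (chr15:82016313-82016340, + strand): gggggtggaaGCGGGAAAtgcgagtggg

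CCAAT, on either strand, was found in a window of 19 of the 31 genes (61.3%), against 42.0% of the genes with a window on the 430 arrays. The CHR element of late cell cycle genes (TTTGAA or TTCGAA) was found in 2 (6.45%, against 17.5%). The PU.1 core GAGGAA was found in 7 (22.6%, against 30.5%), and the longer GAGGAAGT, whose matches are also GAGGAA matches, in 2 (6.45%, against 3.46%). The windows of the 3 genes with the lowest and the 2 with the highest change on the 430 arrays, among those with an entry, are printed with capitals for E2F, CHR, CCAAT and GAGGAA words. Timeless has none of them. Fancb has 1 CCAAT, Blm 2 and Xrcc5 1, while the printed window of Rad54l, the first of 2, has 1 CCAAT and 1 GAGGAA.
Timeless (chr10:128237816-128238115, + strand): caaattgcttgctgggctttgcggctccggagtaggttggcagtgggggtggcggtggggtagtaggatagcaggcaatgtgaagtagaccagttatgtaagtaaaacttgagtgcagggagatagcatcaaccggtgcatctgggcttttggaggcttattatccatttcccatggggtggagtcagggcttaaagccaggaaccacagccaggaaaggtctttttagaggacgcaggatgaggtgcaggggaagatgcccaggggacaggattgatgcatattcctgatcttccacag
Fancb (chrX:164980342-164980641, + strand): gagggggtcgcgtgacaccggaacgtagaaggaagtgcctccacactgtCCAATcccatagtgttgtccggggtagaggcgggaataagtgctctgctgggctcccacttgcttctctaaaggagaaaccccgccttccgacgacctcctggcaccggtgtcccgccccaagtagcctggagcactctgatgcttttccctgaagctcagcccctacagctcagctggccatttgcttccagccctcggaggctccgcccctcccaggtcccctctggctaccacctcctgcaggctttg
Blm (chr7:80534949-80535248, - strand): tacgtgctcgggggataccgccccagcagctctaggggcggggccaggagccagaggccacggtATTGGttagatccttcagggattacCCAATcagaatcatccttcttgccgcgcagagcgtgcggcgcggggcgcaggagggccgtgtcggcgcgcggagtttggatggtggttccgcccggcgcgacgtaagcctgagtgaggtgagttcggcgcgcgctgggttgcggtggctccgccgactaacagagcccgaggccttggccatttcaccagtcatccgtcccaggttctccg
Rad54l (chr4:116123641-116123940, - strand): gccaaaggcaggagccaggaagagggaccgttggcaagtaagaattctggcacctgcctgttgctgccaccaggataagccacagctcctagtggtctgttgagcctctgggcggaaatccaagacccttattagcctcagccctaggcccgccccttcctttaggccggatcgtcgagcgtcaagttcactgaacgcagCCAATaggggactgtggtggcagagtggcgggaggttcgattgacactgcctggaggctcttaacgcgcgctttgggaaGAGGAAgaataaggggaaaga
Xrcc5 (chr1:72307171-72307470, + strand): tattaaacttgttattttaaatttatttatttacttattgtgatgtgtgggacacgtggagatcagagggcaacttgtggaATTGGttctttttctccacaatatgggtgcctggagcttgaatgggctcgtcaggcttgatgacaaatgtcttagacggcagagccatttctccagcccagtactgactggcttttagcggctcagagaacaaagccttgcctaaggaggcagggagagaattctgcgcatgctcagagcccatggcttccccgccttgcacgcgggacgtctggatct

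Repair and checkpoint genes were mostly lower on the 430 arrays labelled 24 h. Of 36 measured genes, 30 were called lower, against 26.1% of all 18161 genes, and 2 higher, against 26.1%; 4 were not called. With array medians removed, the split over all genes was 5219 lower and 3555 higher, against 4742 and 4731 as deposited, and no call among the 36 changed. Quantile normalization gave 4283 lower and 4409 higher over all genes. It ended the lower calls of Atm, Nbn, H2afx, Fanci and Xrcc1 and called Mdm2 higher. Calls in either direction covered 32 of 36 genes, against 52.2% of all. A fall of at least 1 log2 unit was called for 12 of the 36 (5.41% of all genes): Exo1, Timeless, Fancb, Blm, Xrcc6, Msh6, Fancd2, Xrcc3, Brca1, Tipin, Chek1 and Clspn. A rise of that size was called for 0 of the 36 (4.35% of all genes). The median change of the 36 was -0.75, against 0.06 for all genes. In 33 of 36 the values of the groups did not overlap (61.1% of all genes). Less RNA per cell and fewer cells with that RNA cannot be told apart in such samples.

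The labelled direction on the exon arrays was the reverse, with 25 of 34 genes called higher in the arrays labelled 24 h (19.3% of all 14794 genes), 1 lower (10.9%) and 8 not called, so that 26 of 34 were called in either direction (30.2%). The rise reached 1 log2 unit in 11 of 34 (4.93% of all genes) and a fall of that size was called for 0 (3.74%). The median change was 0.76 against 0.01 for all genes, and groups did not overlap for 32 of 34 (47.2%). With the exon labels exchanged the counts read 25 lower and 1 higher. Quantile normalization moved the split over all exon genes to 2409 higher and 2092 lower, against 2856 and 1606 as deposited, and left 24 of the 34 genes called higher and 3 lower. Proliferation genes such as the MCM helicase subunits moved in the same labelled direction: 19 of 19 were called lower on the 430 arrays (26.1% of all genes) and 15 of 17 higher on the exon arrays (19.3%), and the part of these genes, and of the macrophage and progenitor markers that moved with the labels, in the result was not tested.

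**Figure D1:**
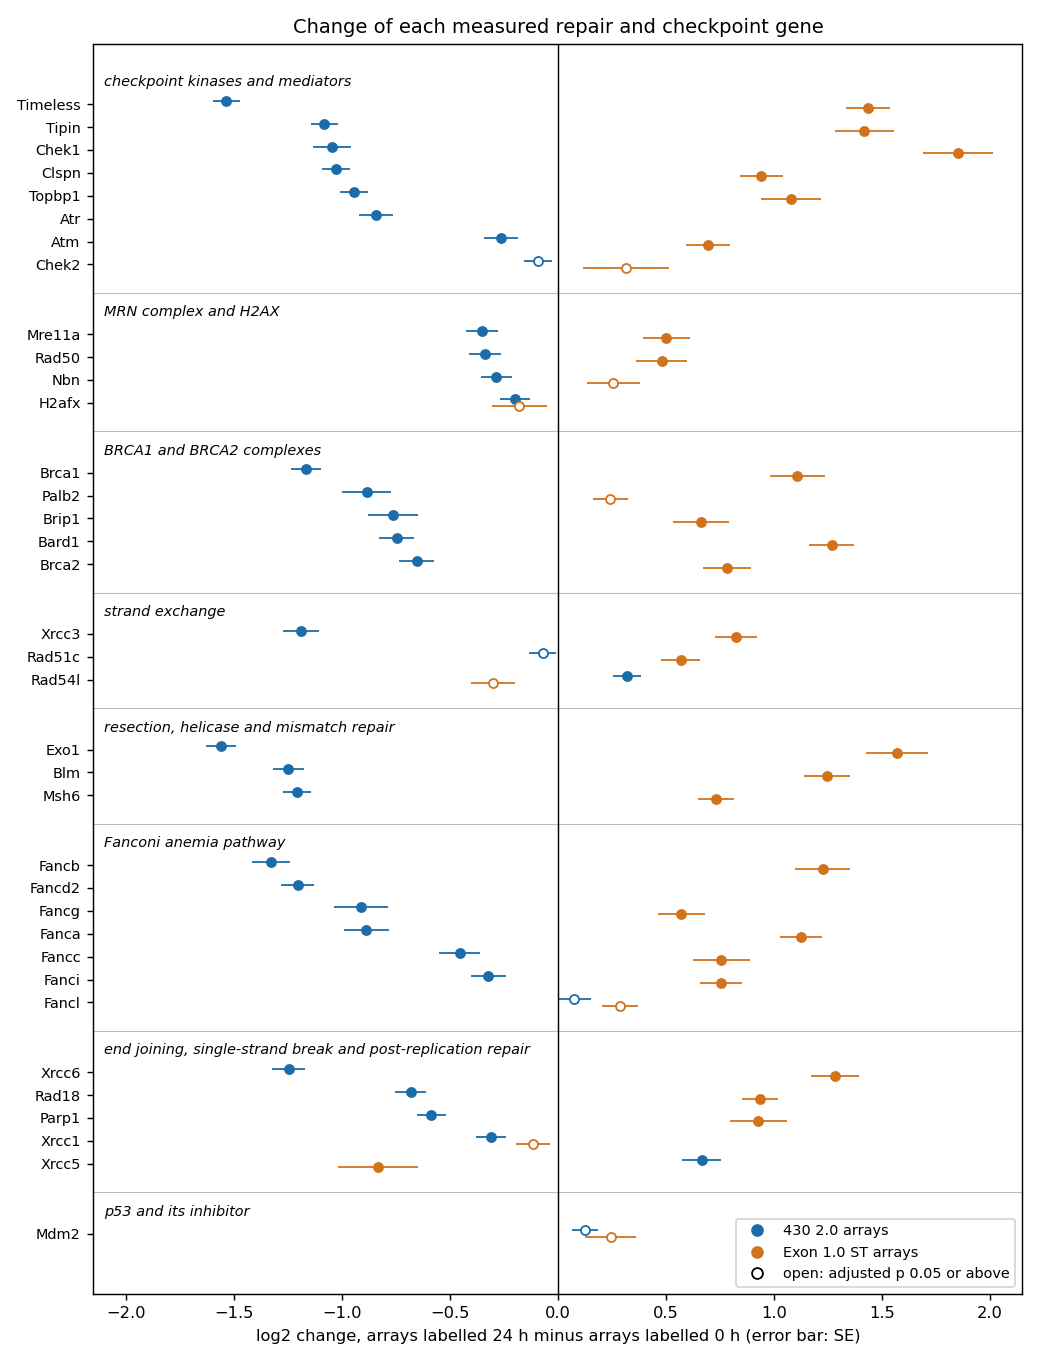
Log2 change (arrays labelled 24 h minus arrays labelled 0 h, horizontal axis) of each measured gene, grouped by role, on the 430 2.0 arrays (blue) and the Exon 1.0 ST arrays (orange). Bars are standard errors from 3 arrays a group and open points have an adjusted p of 0.05 or above. Blue points lie left of 0 for most genes and orange points right of it, with Rad54l and Xrcc5 the other way round.

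Among the checkpoint kinases and mediators, the genes of the ATR branch had the largest changes. Timeless, a subunit of the fork protection complex, had 8.31, 8.37 and 8.26 log2 units in the arrays labelled 24 h, against 9.86, 9.86 and 9.82 in those labelled 0 h (probe set 1417586_at). That is 2.90-fold lower, at -1.53 ± 0.0625 (SE, adjusted p = 1.82e-07). The exon arrays gave 8.10, 7.84 and 7.84 log2 units in the arrays labelled 24 h, against 6.55, 6.46 and 6.48 in those labelled 0 h, a change of 1.43 ± 0.102 (SE, adjusted p = 0.000366), so on both designs the groups were far apart. Tipin, the partner of Timeless, had 10.59, 10.57 and 10.57 log2 units in the arrays labelled 24 h, against 11.72, 11.63 and 11.62 in those labelled 0 h. Tipin changed by -1.08 ± 0.0625 (SE, adjusted p = 1.49e-06) on the 430 arrays. Exon values of Tipin were 9.56, 9.81 and 9.96 log2 units in the arrays labelled 24 h, against 8.27, 8.26 and 8.54 in those labelled 0 h. Tipin changed by 1.42 ± 0.139 (SE, adjusted p = 0.00104) on the exon arrays. The pair thus moved by more than 1 log2 unit on either design.

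Chek1 encodes CHK1, the effector kinase of ATR. Its 430 values were 8.20, 8.36 and 8.14 log2 units in the arrays labelled 24 h, against 9.34, 9.36 and 9.14 in those labelled 0 h. Chek1 changed by -1.05 ± 0.088 (SE, adjusted p = 1.48e-05) on the 430 arrays. On the exon arrays Chek1 had the highest change of all the genes described here, with 7.95, 7.63 and 7.39 log2 units in the arrays labelled 24 h, against 5.96, 5.76 and 5.69 in those labelled 0 h, or 3.61-fold (1.85 ± 0.163, SE, adjusted p = 0.000737). Claspin, the adaptor through which ATR activates CHK1, is encoded by Clspn, which had 8.99, 9.08 and 9.04 log2 units in the arrays labelled 24 h, against 10.00, 10.12 and 10.08 in those labelled 0 h (-1.03 ± 0.0657, SE, adjusted p = 2.7e-06). The exon arrays gave 7.54, 7.54 and 7.36 log2 units in the arrays labelled 24 h, against 6.55, 6.43 and 6.64 in those labelled 0 h for Clspn (0.94 ± 0.0983, SE, adjusted p = 0.00134), again without overlap. The ATR activator gene Topbp1 changed by -0.95 ± 0.065 (SE, adjusted p = 4.23e-06) on the 430 arrays and by 1.08 ± 0.137 (SE, adjusted p = 0.00271) on the exon arrays. Atr itself, measured on the 430 arrays, had 7.94, 8.01 and 7.94 log2 units in the arrays labelled 24 h, against 8.95, 8.74 and 8.73 in those labelled 0 h. Atr changed by -0.84 ± 0.0789 (SE, adjusted p = 2.95e-05) on the 430 arrays.

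The ATM branch moved less on the 430 arrays. Atm had 7.47, 7.71 and 7.54 log2 units in the arrays labelled 24 h, against 7.79, 7.90 and 7.81 in those labelled 0 h, a change of -0.26 ± 0.0785 (SE, adjusted p = 0.0233), and its highest array labelled 24 h lay close below the lowest labelled 0 h. The call was lost without 24 h array 1 (adjusted p = 0.0851), 24 h array 3 (0.0683) or 0 h array 2 (0.079), and with quantile normalization (0.261). A second Atm probe set changed by -0.70 (adjusted p = 0.000234), and the exon arrays gave 6.30, 6.28 and 6.09 log2 units in the arrays labelled 24 h, against 5.57, 5.41 and 5.60 in those labelled 0 h. Atm changed by 0.69 ± 0.101 (SE, adjusted p = 0.00436) on the exon arrays. Chek2, which encodes the effector kinase CHK2, was called on neither design. It had 8.35, 8.44 and 8.41 log2 units in the arrays labelled 24 h, against 8.54, 8.50 and 8.43 in those labelled 0 h. The difference for Chek2 was -0.09 ± 0.0647 (SE, adjusted p = 0.282). For Chek2 the exon design gave 8.04, 7.60 and 7.26 log2 units in the arrays labelled 24 h, against 7.38, 7.28 and 7.29 in those labelled 0 h, where the groups overlap and the first array labelled 24 h is the highest (0.32 ± 0.198, SE, adjusted p = 0.333).

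The MRN complex and H2AX, the histone variant that ATM marks around a break, had small changes. All 4 genes were called lower on the 430 arrays, by -0.35 to -0.20 (26.1% of all genes), and 2 were called higher on the exon arrays (19.3%). Mre11a, the nuclease subunit, had 8.85, 8.78 and 8.89 log2 units in the arrays labelled 24 h, against 9.26, 9.24 and 9.07 in those labelled 0 h. Mre11a changed by -0.35 ± 0.0738 (SE, adjusted p = 0.00411) on the 430 arrays. The exon arrays gave 8.06, 8.06 and 7.81 log2 units in the arrays labelled 24 h, against 7.41, 7.43 and 7.59 in those labelled 0 h for Mre11a. Mre11a changed by 0.50 ± 0.109 (SE, adjusted p = 0.0198) on the exon arrays. Rad50, the ATPase subunit, changed by -0.34 ± 0.0725 (SE, adjusted p = 0.00469) and 0.48 ± 0.12 (SE, adjusted p = 0.0318) on the 430 and exon arrays. Nbn, the subunit that binds ATM, changed by -0.29 ± 0.0715 (SE, adjusted p = 0.0104) on the 430 arrays and was not called on the exon arrays (0.26 ± 0.123, SE, adjusted p = 0.205).

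H2afx had 11.58, 11.48 and 11.60 log2 units in the arrays labelled 24 h, against 11.79, 11.67 and 11.80 in those labelled 0 h, a change of -0.20 ± 0.0695 (SE, adjusted p = 0.0448), and stood in a narrow band in both groups. Its exon values were 10.79, 10.37 and 10.64 log2 units in the arrays labelled 24 h, against 10.86, 10.69 and 10.78 in those labelled 0 h, which overlap, with -0.18 ± 0.129 (SE, adjusted p = 0.403). The H2afx call on the 430 arrays was lost without 24 h array 1 (adjusted p = 0.0802), 2 (0.128) or 3 (0.0634) or 0 h array 1 (0.116) or 3 (0.115), and with quantile normalization (0.119), which also ended that of Nbn (0.0641). For the exon arrays, the calls of Mre11a were lost without 24 h array 1 (adjusted p = 0.0617) or 2 (0.0736) or 0 h array 1 (0.0705) or 2 (0.0706), and those of Rad50 without 24 h array 1 (0.0922), 2 (0.09) or 3 (0.0649), without 0 h array 1 (0.096) or 2 (0.104), and with quantile normalization (0.0608).

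**Figure D2:**
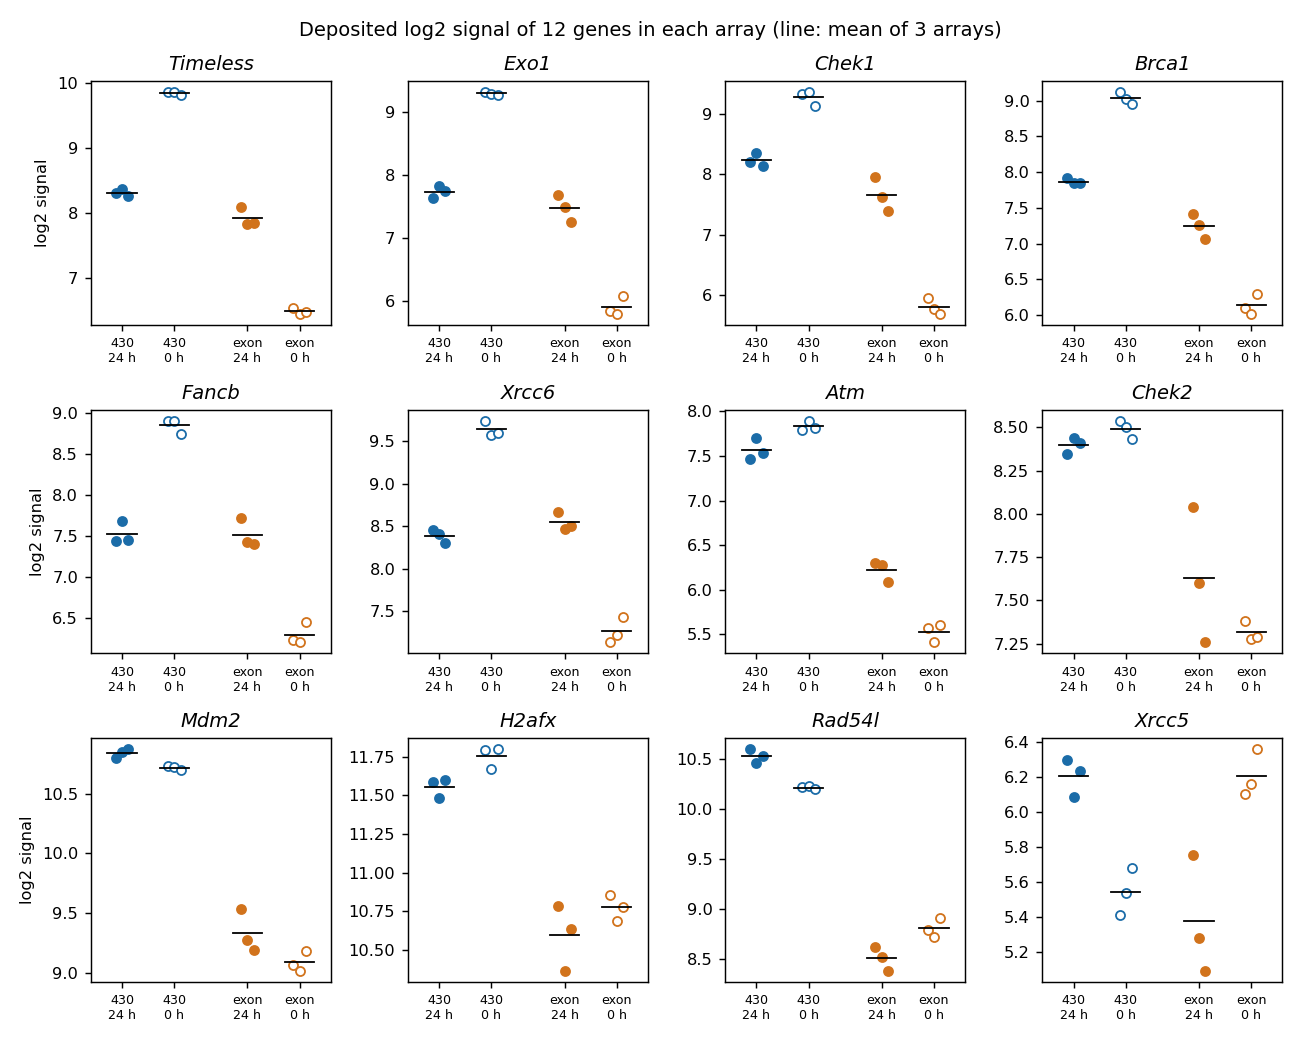
Log2 signal of 12 genes in each of the 12 arrays (points), by design and label, with filled points for 24 h, open points for 0 h and a line at the mean of 3 arrays. Vertical axes differ between panels and do not start at 0. The first 6 panels, Timeless to Xrcc6, show separated groups that run opposite ways on the designs, while the Chek2 points overlap on both designs.

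All 5 genes of the BRCA1 and BRCA2 complexes were called lower on the 430 arrays (26.1% of all genes), and 4 of 5 higher on the exon arrays (19.3%). Brca1, which encodes the ubiquitin ligase that promotes resection and brings in PALB2, had 7.92, 7.84 and 7.84 log2 units in the arrays labelled 24 h, against 9.12, 9.03 and 8.95 in those labelled 0 h (probe set 1424629_at), a 2.24-fold fall (-1.17 ± 0.0692, SE, adjusted p = 1.74e-06). The exon arrays put Brca1 at 7.41, 7.26 and 7.06 log2 units in the arrays labelled 24 h, against 6.10, 6.02 and 6.29 in those labelled 0 h. Brca1 changed by 1.11 ± 0.127 (SE, adjusted p = 0.00187) on the exon arrays. The groups were separate on either design. Of the other 3 Brca1 probe sets, 2 changed by -1.47 (adjusted p = 1.03e-05) and -1.39 (3.15e-06), while the dimmest, at a mean of 5.29, changed by 0.32 (0.0152) and was called higher.

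Brca2, the tumor suppressor that PALB2 brings to breaks, moved least of the 5 on the 430 arrays. It had 7.90, 8.05 and 8.04 log2 units in the arrays labelled 24 h, against 8.79, 8.61 and 8.56 in those labelled 0 h. Brca2 changed by -0.65 ± 0.0825 (SE, adjusted p = 0.000196) on the 430 arrays. The exon arrays gave 6.16, 5.99 and 5.94 log2 units in the arrays labelled 24 h, against 5.17, 5.16 and 5.41 in those labelled 0 h, a change of 0.78 ± 0.111 (SE, adjusted p = 0.00394), and neither design showed overlap. Bard1, the obligate partner of BRCA1, changed by -0.75 ± 0.0807 (SE, adjusted p = 7.47e-05) on the 430 arrays, where its level lay between 5.38 and 6.30, and by 1.27 ± 0.102 (SE, adjusted p = 0.000567) on the exon arrays. Brip1, a helicase that binds BRCA1, changed by -0.76 ± 0.115 (SE, adjusted p = 0.000595) and 0.66 ± 0.129 (SE, adjusted p = 0.013) on the 430 and exon arrays. Palb2, the bridge between BRCA1 and BRCA2, changed by -0.89 ± 0.114 (SE, adjusted p = 0.000228) on the 430 arrays and was not called on the exon arrays (0.24 ± 0.0804, SE, adjusted p = 0.0813), although the exon groups did not overlap.

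The strand-exchange genes were split. Xrcc3, which acts in strand exchange and its resolution, had 6.0, 5.99 and 6.22 log2 units in the arrays labelled 24 h, against 7.35, 7.18 and 7.25 in those labelled 0 h, 2.28-fold lower (-1.19 ± 0.0852, SE, adjusted p = 5.45e-06). Exon arrays had Xrcc3 at 7.20, 7.24 and 7.22 log2 units in the arrays labelled 24 h, against 6.25, 6.41 and 6.53 in those labelled 0 h. Xrcc3 changed by 0.82 ± 0.0972 (SE, adjusted p = 0.00207) on the exon arrays. Rad51c, whose product pairs with XRCC3, had 7.47, 7.52 and 7.46 log2 units in the arrays labelled 24 h, against 7.55, 7.59 and 7.52 in those labelled 0 h and was not called (-0.07 ± 0.0615, SE, adjusted p = 0.386); one array of either group lay inside the range of the other. A dimmer Rad51c probe set changed by -0.62 and was called lower (adjusted p = 0.000317). The exon values of Rad51c were 6.35, 6.39 and 6.26 log2 units in the arrays labelled 24 h, against 5.67, 5.76 and 5.87 in those labelled 0 h, with no overlap. Rad51c changed by 0.57 ± 0.0904 (SE, adjusted p = 0.00615) on the exon arrays.

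Rad54l, a DNA motor protein that aids invasion of the donor strand, was 1 of the 2 genes called higher on the 430 arrays, with Xrcc5. It had 10.60, 10.46 and 10.54 log2 units in the arrays labelled 24 h, against 10.22, 10.23 and 10.20 in those labelled 0 h (probe set 1450862_at). Rad54l changed by 0.32 ± 0.0649 (SE, adjusted p = 0.00362) on the 430 arrays. Of its other 3 probe sets, 2 were also called higher, by 0.22 (adjusted p = 0.0239) and 0.42 (0.00634), and 1 was not called (0.04, 0.716). On the exon arrays Rad54l had 8.62, 8.52 and 8.38 log2 units in the arrays labelled 24 h, against 8.79, 8.72 and 8.91 in those labelled 0 h and was not called (-0.30 ± 0.102, SE, adjusted p = 0.0864), though all 3 arrays labelled 24 h lay below those labelled 0 h. It was called lower there with quantile normalization (adjusted p = 0.0118), without features below the median level (0.0368) and with gene means (0.0433).

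Exo1, Blm and Msh6 were called on both designs, and each fell by more than 1 log2 unit on the 430 arrays. Exo1, the nuclease of long-range resection and mismatch repair, had the lowest change of all the genes described here on these arrays. Its values were 7.63, 7.82 and 7.74 log2 units in the arrays labelled 24 h, against 9.31, 9.29 and 9.27 in those labelled 0 h (probe set 1418026_at), 2.95-fold lower (-1.56 ± 0.0691, SE, adjusted p = 2.99e-07). Exon values of Exo1 were 7.68, 7.49 and 7.25 log2 units in the arrays labelled 24 h, against 5.84, 5.8 and 6.07 in those labelled 0 h, a change of 1.57 ± 0.143 (SE, adjusted p = 0.000839), which is nearly the same size. Blm, the helicase that dissolves double Holliday junctions, had 8.45, 8.49 and 8.47 log2 units in the arrays labelled 24 h, against 9.78, 9.77 and 9.61 in those labelled 0 h. Blm changed by -1.25 ± 0.0697 (SE, adjusted p = 1.22e-06) on the 430 arrays. The exon arrays gave 7.90, 7.82 and 7.72 log2 units in the arrays labelled 24 h, against 6.51, 6.46 and 6.72 in those labelled 0 h for Blm. Blm changed by 1.25 ± 0.105 (SE, adjusted p = 0.000652) on the exon arrays. Both designs thus put Blm at the same size with opposite labelled sign. Msh6, the mismatch recognition subunit, had 9.40, 9.54 and 9.46 log2 units in the arrays labelled 24 h, against 10.68, 10.67 and 10.66 in those labelled 0 h. Msh6 changed by -1.21 ± 0.0644 (SE, adjusted p = 9.25e-07) on the 430 arrays. On the exon arrays Msh6 moved less, with 8.34, 8.43 and 8.49 log2 units in the arrays labelled 24 h, against 7.65, 7.67 and 7.74 in those labelled 0 h (0.73 ± 0.0829, SE, adjusted p = 0.0018).

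Of 7 Fanconi anemia genes, 6 were called lower on the 430 arrays (26.1% of all genes), and 5 of 6 higher on the exon arrays (19.3%). Fancb, a core complex subunit encoded on the X chromosome, had 7.45, 7.69 and 7.45 log2 units in the arrays labelled 24 h, against 8.90, 8.91 and 8.75 in those labelled 0 h, 2.51-fold lower (-1.33 ± 0.0868, SE, adjusted p = 3.08e-06). For Fancb the exon design gave 7.72, 7.43 and 7.41 log2 units in the arrays labelled 24 h, against 6.23, 6.20 and 6.45 in those labelled 0 h. Fancb changed by 1.22 ± 0.125 (SE, adjusted p = 0.00123) on the exon arrays. Fancd2, whose ubiquitination starts crosslink repair, had 6.65, 6.77 and 6.68 log2 units in the arrays labelled 24 h, against 7.94, 7.99 and 7.79 in those labelled 0 h, a change of -1.20 ± 0.0763 (SE, adjusted p = 2.59e-06), with the groups well apart. Its partner Fanci changed by -0.32 ± 0.0813 (SE, adjusted p = 0.0109) on the 430 arrays and by 0.75 ± 0.0971 (SE, adjusted p = 0.00282) on the exon arrays; a second Fanci probe set changed by -1.03 (adjusted p = 1.29e-05), and quantile normalization ended the call of the first (adjusted p = 0.124).

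The core complex genes Fanca and Fancg changed by -0.89 ± 0.105 (SE, adjusted p = 0.000131) and -0.91 ± 0.125 (SE, adjusted p = 0.000328) on the 430 arrays. Exon changes were, for Fanca, 1.13 ± 0.0981 (SE, adjusted p = 0.000716) and, for Fancg, 0.57 ± 0.109 (SE, adjusted p = 0.0122). Fancc, of the same complex, changed by -0.45 ± 0.0959 (SE, adjusted p = 0.00429) on the 430 arrays and by 0.76 ± 0.133 (SE, adjusted p = 0.00895) on the exon arrays. Its other 2 probe sets on the 430 arrays were not called (0.05, adjusted p = 0.652, and 0.17, adjusted p = 0.0856), and neither was their mean with the first (-0.08, adjusted p = 0.299). Fancl, the ligase subunit, was called on neither design. It had 10.19, 10.27 and 10.11 log2 units in the arrays labelled 24 h, against 10.21, 10.13 and 10.02 in those labelled 0 h, where the groups overlap (0.07 ± 0.0764, SE, adjusted p = 0.461). The exon values of Fancl were 7.37, 7.34 and 7.29 log2 units in the arrays labelled 24 h, against 7.04, 6.96 and 7.13 in those labelled 0 h, which do not overlap (0.29 ± 0.0845, SE, adjusted p = 0.0549), and it was called higher there in 4 other settings (adjusted p 0.0233 to 0.0475).

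The 2 Ku subunits, which hold ends for non-homologous joining as a heterodimer, changed in opposite directions. Xrcc6, which encodes Ku70, had 8.45, 8.41 and 8.30 log2 units in the arrays labelled 24 h, against 9.74, 9.57 and 9.60 in those labelled 0 h, 2.37-fold lower (-1.25 ± 0.075, SE, adjusted p = 1.89e-06). The exon arrays put Xrcc6 at 8.66, 8.47 and 8.51 log2 units in the arrays labelled 24 h, against 7.14, 7.23 and 7.43 in those labelled 0 h. Xrcc6 changed by 1.28 ± 0.111 (SE, adjusted p = 0.000706) on the exon arrays. Xrcc5, which encodes Ku80, had 6.30, 6.09 and 6.24 log2 units in the arrays labelled 24 h, against 5.41, 5.54 and 5.68 in those labelled 0 h (probe set 1451968_at), 1.59-fold higher (0.66 ± 0.0896, SE, adjusted p = 0.000299). It was the highest change among the genes described here on the 430 arrays and rests on 1 probe set near the array median. Exon arrays had Xrcc5 at 5.75, 5.28 and 5.09 log2 units in the arrays labelled 24 h, against 6.10, 6.16 and 6.36 in those labelled 0 h, a change of -0.83 ± 0.186 (SE, adjusted p = 0.0216) and the 1 gene called lower. That call was lost without 24 h array 2 (adjusted p = 0.0745), 0 h array 1 (0.0517), 2 (0.0619) or 3 (0.0675), and with the replicate block (0.0693). The level was low there too: Xrcc5 had exon means of 5.37 at 24 h and 6.21 at 0 h, where array medians were 5.39 to 5.42. Both Ku genes thus had separate groups on either design, and the sign of Xrcc5 was the reverse of that of Xrcc6 on each.

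Xrcc1, the scaffold of single-strand break repair, had 8.55, 8.50 and 8.55 log2 units in the arrays labelled 24 h, against 8.84, 8.75 and 8.94 in those labelled 0 h. Xrcc1 changed by -0.31 ± 0.0697 (SE, adjusted p = 0.00609) on the 430 arrays. Its exon values were 8.40, 8.32 and 8.30 log2 units in the arrays labelled 24 h, against 8.44, 8.43 and 8.51 in those labelled 0 h, not called (-0.12 ± 0.078, SE, adjusted p = 0.365). Xrcc1 and H2afx had the same labelled sign on both designs, but their exon changes were not called as deposited. With quantile normalization the 430 call of Xrcc1 was lost (adjusted p = 0.113) and the exon arrays called it lower (-0.25, adjusted p = 0.0414). Parp1, the sensor of strand breaks, changed by -0.59 ± 0.0681 (SE, adjusted p = 0.000118) on the 430 arrays and by 0.93 ± 0.133 (SE, adjusted p = 0.00412) on the exon arrays. Other Parp1 probe sets on the 430 arrays changed by -0.56 and -1.18 and were called lower. A further Parp1 probe set, at a mean of 9.68, changed by -0.22 and was not called (adjusted p = 0.0533). Rad18, the ligase that ubiquitinates PCNA at stalled forks, changed by -0.68 ± 0.0712 (SE, adjusted p = 6.03e-05) and 0.93 ± 0.082 (SE, adjusted p = 0.000733) on the 430 and exon arrays, and its other 3 probe sets on the 430 arrays were also called lower (-1.07 to -0.75).

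Mdm2, the ligase and transcriptional target of p53, was called on neither design. It had 10.80, 10.85 and 10.88 log2 units in the arrays labelled 24 h, against 10.73, 10.73 and 10.70 in those labelled 0 h, where the groups did not overlap but the change was 0.12 ± 0.0606 (SE, adjusted p = 0.131). The Mdm2 change was called higher on the 430 arrays with quantile normalization (0.21, adjusted p = 0.0191) and with an intensity trend and robust variances (0.12, 0.0353). A further Mdm2 probe set there, at a mean of 10.32, changed by -0.11 (adjusted p = 0.176), and a dim one by 0.03 (0.864). Neither was called. On the exon arrays Mdm2 had 9.54, 9.28 and 9.19 log2 units in the arrays labelled 24 h, against 9.06, 9.02 and 9.19 in those labelled 0 h, with the lowest array labelled 24 h just above the highest labelled 0 h, a change of 0.24 ± 0.118 (SE, adjusted p = 0.205). Of 19 measured p53 target genes, 9 were called higher and 2 lower on the 430 arrays (26.1% of all genes each way), and of 17 on the exon arrays 1 was called higher (19.3% of all genes) and 5 lower (10.9%). The examples with the largest change were Trp53inp1, an inducer of cell death and autophagy (2.00 on the 430 design and -1.57 on the exon design), Aen, an apoptosis nuclease (-0.99 and 0.59), and the death receptor Fas (0.93 and -0.77). Cdkn1a, the p21 inhibitor, was not called on either (-0.06 and 0.23).

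**Figure D3:**
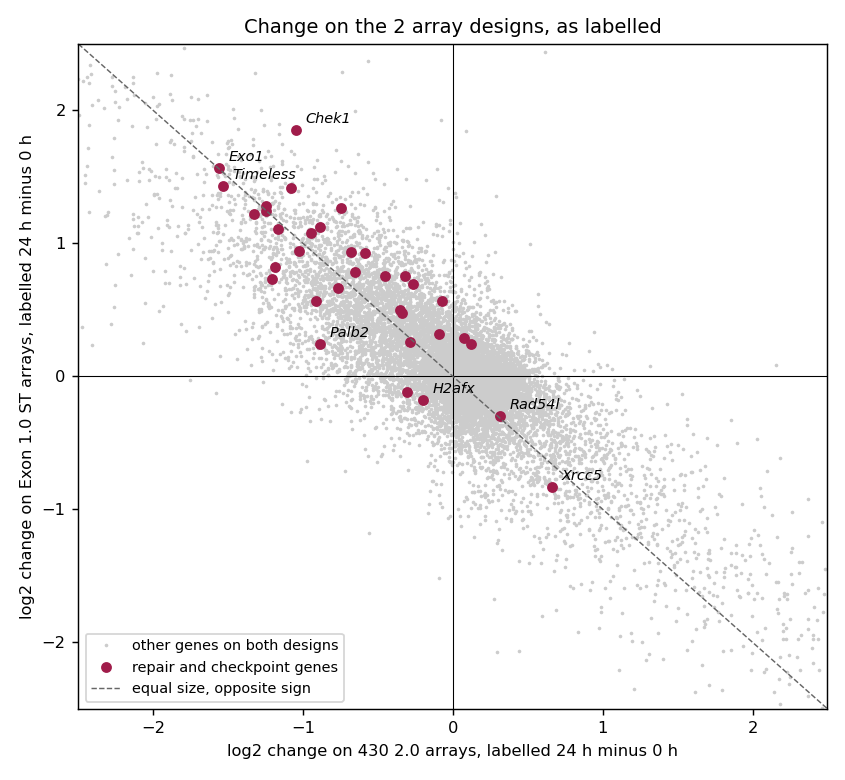
Log2 change (labelled 24 h minus 0 h) on the 430 2.0 arrays (horizontal) against the Exon 1.0 ST arrays (vertical) for the 34 repair and checkpoint genes on both designs (red) and the other genes on both (grey; values beyond 2.5 log2 units are not drawn). The dashed line marks equal size with opposite sign, and 30 of the 34 red points have opposite signs.

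Set side by side, the designs gave opposite labelled signs for 30 of the 34 genes measured on both. In all, 24 genes were called lower on the 430 arrays and higher on the exon arrays (18.3% of the 13366 genes on both), 1 the other way (9.53%), and 0 in the same direction (0.18% lower and 0.247% higher). Another 5 were called on the 430 arrays alone (Nbn, H2afx, Palb2, Rad54l and Xrcc1), 1 on the exon arrays alone (Rad51c) and 3 on neither (Chek2, Fancl and Mdm2). The 430 arrays called 52.2% of all their genes in either direction and the exon arrays 30.2%. More calls on the 430 arrays alone are therefore not read as a result about these genes. Across the 34 genes the changes correlated at r = -0.83 (Pearson) and -0.82 (Spearman), which describes genes that share their arrays and carries no p. The size was larger on the 430 arrays for 14 of the 34. Shares over the 13366 genes are not given here for opposite signs, for calls on 1 design or neither, or for the larger size. The tables were made separately, so no difference between the designs was tested.

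For genes with several probe sets on the 430 design, most probe sets had the same call. The 24 such genes had 41 further probe sets. Of these, 31 had the same call as the brightest probe set, 8 were not called where it was called, 1 was called where it was not (Rad51c) and 1 was called in the opposite direction (Brca1). Timeless and Exo1 each had a further probe set with a larger change, of -2.02 and -1.78. Chek1 had 2 that changed by -1.25 and -1.15 and 2 dim ones that were not called (0.04 and -0.20).

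**Figure D4:**
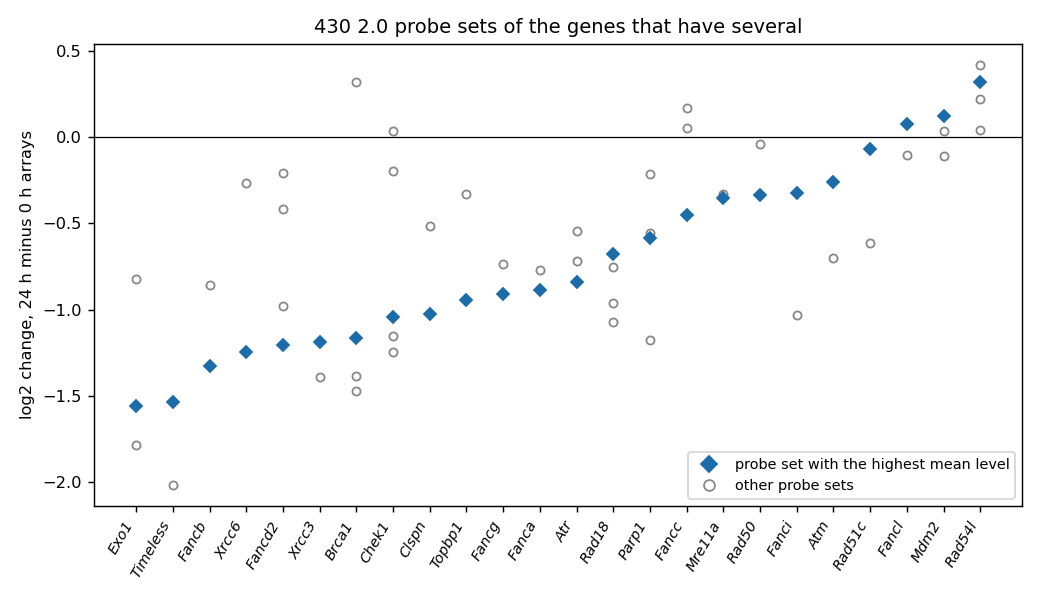
Log2 change (labelled 24 h minus 0 h) of each 430 2.0 probe set for the 24 genes with several, ordered by the probe set with the highest mean level (diamonds); circles are the other 41 probe sets. Most circles lie on the same side of 0 as their diamond. Those that do not are the ones of Brca1 (0.32), Chek1 (0.04) and Fancc (0.05 and 0.17) above 0 and those of Fancl (-0.10) and Mdm2 (-0.11) below it.

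Other genes of the same pathways were taken from lists written beside the 38 genes. Of 22 measured further recombination and Fanconi genes, 20 were called lower and 1 higher on the 430 arrays (26.1% of all genes each way), and of 20 on the exon arrays 15 were called higher (19.3% of all genes) and 1 lower (10.9%). Fance, a core complex gene (-1.28), Eme1, a nuclease partner of MUS81 (-1.26), and Rpa2, a subunit of the single-strand binding protein (-1.20), had the largest falls on the 430 arrays. The exon arrays called Eme1 (1.24) and Rpa2 (1.30) higher but did not call Fance (0.37, adjusted p = 0.121). Dna2, a resection nuclease, was the 1 gene of the list called higher on the 430 arrays and is named for it. Dna2 changed by 0.99 on the 430 arrays (adjusted p = 1.69e-06) and by -0.74 on the exon arrays (0.0025). The list's median change was -0.67 and 0.59 on the 430 and exon arrays.

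Of 20 further checkpoint genes, 15 were called lower (26.1% of all genes) and 5 not called on the 430 arrays, and of 17 on the exon arrays 12 were called higher (19.3%). Cdc25a, the phosphatase that CHK1 marks for destruction, changed by -1.98 on the 430 design and 1.93 on the exon design. Wee1, the kinase that restrains CDK1, changed by -1.46 and 1.30, and Rad1, a subunit of the checkpoint clamp, by -1.28 and 1.57. Of 21 end joining, excision and mismatch repair genes on the 430 arrays, 12 were called lower and 5 higher (26.1% of all genes each way), so the count called higher was near the share of all genes, and of 19 on the exon arrays 8 were called higher (19.3% of all genes). Xpc, the damage sensor of excision repair (-1.70 on the 430 arrays), Rev1, a translesion polymerase (-0.83), and Pms2, of mismatch repair (-0.76), fell most. The exon arrays called Pms2 higher (1.08, adjusted p = 0.00164) but did not call Xpc (0.37, 0.0738) or Rev1 (0.25, 0.0577). Medians were -0.26 and 0.38 for that list and -0.52 and 0.54 for the checkpoint list on the 430 and exon arrays. Proliferation genes had medians of -1.23 and 1.25, with Tyms (-2.0), Mcm3 (-1.74) and Rrm2 (-1.67) lowest on the 430 arrays.

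**Figure D5:**
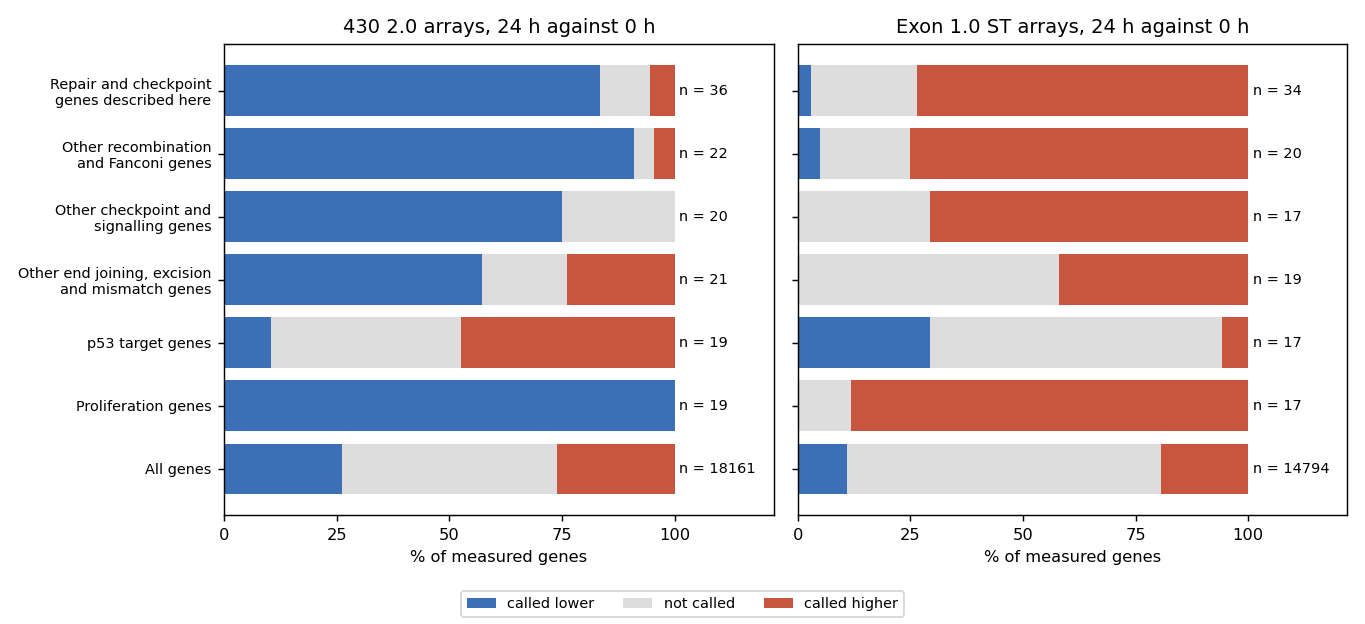
Share of measured genes called lower (blue), not called (grey) or called higher (red) in arrays labelled 24 h against 0 h, for the 38 genes described here, 5 further lists and all genes, on either design; n is the number of genes measured. On the 430 arrays 30 of 36 repair and checkpoint genes are called lower, and on the exon arrays 25 of 34 are called higher.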

How the data were processed

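The deposited tables hold log2 signals, 1 table per array design, made by the authors with Affymetrix Expression Console per the submitters' processing notes, which name genome build mm8 for the exon arrays. The way probes were summarized was not given in the sources used here. No column was left unassigned. The 64 control probe sets of the 430 design stayed out of the tests. Features were named by the platform annotation, with symbols updated to RefSeq GRCm38.p6.

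Groups were compared within each table with limma 3.58.1 in R 4.3.3 (lmFit, eBayes, two-sided, Benjamini-Hochberg over the 45037 or 23238 features, called under 0.05), tested on simulated data. No label states that a group's 3 arrays came from separate cultures, so p-values measure the spread between arrays, which may be technical; precision is limited by how few arrays there are, and a permutation test of 3 against 3 cannot go below 0.1. Arrays of 1 group correlated at 0.985 or above and groups at 0.958 to 0.969.

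The genes, lists and roles were chosen with earlier results of these data known. Values by array are printed for the gene with the largest and the one with the smallest 430 change in each role group, genes called there with a change of at least 1 log2 unit, genes called the same labelled way on both designs or on neither, and Brca1, Brca2, Atm, Atr, Chek1, Mdm2 and Trp53, which was not analysed here; Rad54l and Xrcc5 were added after their values were seen. Of each further list, up to 3 called genes with the largest 430 change are named; Dna2 and Cdkn1a were added after their values were seen.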

Additional observations from a re-analysis of the deposited data

Results flagged for a closer look

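The 2 array designs gave opposite labelled directions for 25 of the 25 genes called on both, with 24 lower on the 430 arrays and higher on the exon arrays and 1, Xrcc5, the other way. The same held for 3714 of 3771 genes called on both in the whole series. The difference itself was not tested, since the tables were made separately, and its cause was not tested.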

How the results depend on the processing

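Genes called lower on the 430 arrays numbered 30, and 28 to 29 with 1 array left out and 25 with quantile normalization. The number was 12 when a change of at least 1 log2 unit was also required. That requirement left 0 called higher in place of 2, and 983 lower and 790 higher over all genes. Over all genes, calls lower on the 430 arrays numbered 4742 as deposited, 4360 to 4523 with 1 array left out and 4283 with quantile normalization. On the exon arrays 25 of the genes described here were called higher (23 to 25 with 1 array left out, 11 with the requirement) and 1 lower. Genes called lower on the exon arrays numbered 3 with quantile normalization, 2 without features below the median level, 2 with gene means, 0 with the requirement and 0 to 1 with 1 array left out. Over all exon genes the requirement left 729 higher and 554 lower. As deposited, 2856 of all exon genes were called higher and 1606 lower. With 1 array left out these were 1992 to 2618 and 1175 to 1457, and quantile normalization gave 2409 and 2092. No label states that the replicate numbers pair the arrays. Same-numbered arrays deviated from their group means together at r = -0.05, 0.04 and 0.13 on the 430 design. On the exon design r was -0.03, 0.01 and -0.05, and arrays did not all correlate best with their own number. Deviations within a group of 3 arrays sum to 0, so these values constrain one another and cannot decide whether arrays were paired. With the replicate block 30 of the genes described here were called lower and 2 higher on the 430 arrays, and 22 higher and 0 lower on the exon arrays. There Mre11a (adjusted p = 0.0797), Rad50 (0.0882), Brip1 (0.0565) and Xrcc5 (0.0693) lost their calls. Counts over all genes with the block are not given here. Signs turned for 3 changes on the 430 arrays that were not called as deposited: Chek2 (0.0711) and Rad51c (0.0598) with quantile normalization, and Fancl (-0.015) with gene means. Gene means called Rad51c lower on the 430 arrays (-0.34, adjusted p = 0.000722) and Palb2 higher on the exon arrays (adjusted p = 0.0442). None of the genes described here has a second feature on the exon arrays. With gene means the exon change of Palb2 therefore stayed as deposited (0.24), and only its SE and adjusted p moved. The causes were not tested.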

Other observations

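Of the 90 further repair, checkpoint, p53 target and proliferation genes measured on both designs, 1 was called in the same labelled direction on both. This was Xrcc4, the scaffold that works with DNA ligase IV in end joining, with a mean of 8.72 in arrays labelled 24 h and 8.48 in those labelled 0 h on the 430 design (a change of 0.25, adjusted p = 0.019) and 8.72 and 8.28 on the exon design (0.44, 0.0301). In the whole series 33 of 13366 genes were called higher on both designs and 24 lower on both.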
